A study of Mus musculus with 48 samples.

Results

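Intact proximal colon of healthy C57BL/6J mice was compared between 12 and 6 weeks of age, to describe how gene expression in an uninflamed large bowel changed over those weeks. The 12 arrays, 6 mice per age, were those whose sample titles give intact colon, the C57 strain and either age, of 48 arrays in the series. C57BL/6J is the standard inbred laboratory mouse, with an intact interleukin 10 gene, and served as control for Il10-/- mice on the same background, which develop colitis. The controls were of the C57BL/6JArc substrain from a New Zealand colony and the Il10-/- mice came from the Jackson Laboratory, so that in comparisons of the strains genotype, substrain and source cannot be told apart. Per the labels the mice were males. All of them were dosed with Enterococcus strains plus gut microbiota of conventional mice, housed conventionally and fed a purified diet. The younger mice were killed a few days after that inoculation and the older mice weeks later. Age, time since inoculation and time on the diet and in conventional housing can therefore not be told apart. Each array held RNA of a single mouse, and the mice were picked to span the histology scores of their group. A mouse carries the number its label gives. Mice with the same number at both ages are different animals whose arrays shared a slide.

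The values are log2 ratios of colon RNA, labelled with Cy3, over a reference pool of Swiss mouse tissues, labelled with Cy5. A value describes 1 probe, and levels of different genes were not compared. A log2 difference of 1 means a 2-fold change (FC). Differential expression was called for a gene if at least 1 of its probes had an FC over 1.5 with a false discovery rate (FDR) under 0.05, in limma with all 24 intact colon arrays. Levels are given as the lowest, median and highest or as the range over the 6 mice of an age, and differences as estimate ± SE of the fit. Full-thickness colon wall holds the epithelium, the lamina propria with its immune cells, vessels, nerves and glia, and smooth muscle. In such bulk tissue fewer cells of a type and less RNA per cell cannot be told apart.

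In the mouse, the weeks after weaning are when the gut wall grows to adult size, when immunoglobulin A plasma cells fill the lamina propria, and when intestinal calcium uptake, driven by vitamin D, declines from its juvenile level. The colonic epithelium takes up sodium, chloride, water and bile acids and exports zinc, manganese and iron. Goblet cells coat it with mucus. Fat cells lie along the mesenteric border of the bowel and fill with lipid as a mouse matures.

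Of 27670 genes, 244 (0.882%) were called between the ages, 107 higher (0.387%) and 137 lower (0.495%) at 12 weeks. Most differences were small, with a median absolute log2 difference of 0.717 among the called genes, 40 genes over 2-fold and only Lep and Nat8l over 4-fold. An unadjusted p under 0.05 was reached by 5689 genes (20.6%). Every mouse of one age lay above every mouse of the other for 89 of the 244 genes (36.5%), and for 416 of all genes (1.5%). The number of calls depended on single arrays. Without 12 week old mouse 2 it was 47, without 6 week old mouse 4 it was 62, without 6 week old mice 1 or 6 it was 154 or 157, and without 12 week old mouse 4 it was 371. With only the 12 C57BL/6J arrays in the fit, 12 genes were called, and 4712 had an unadjusted p under 0.05. With the slide added to that fit as a block, 61 were called, and 5537 had an unadjusted p under 0.05. In all 12 fits that left out 1 array, 34 genes were called, 11 higher and 23 lower.

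**Figure D1:**
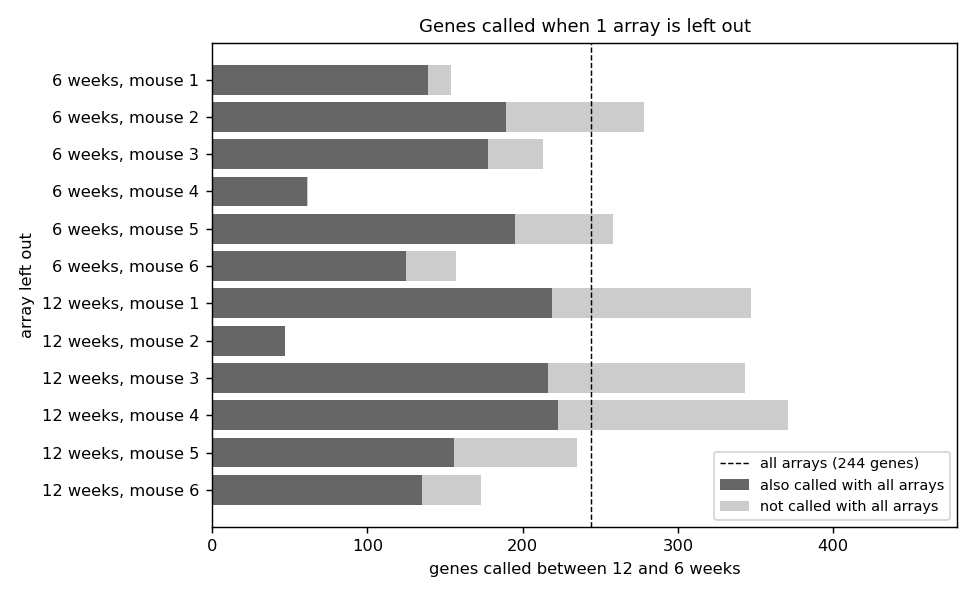
Number of genes called between 12 and 6 weeks (x axis) when the array named on the y axis was left out, split by whether the gene was also called with all arrays. The counts run from 47 without 12 week old mouse 2 to 371 without 12 week old mouse 4, around the 244 of all arrays (dashed line).

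Slides 2 and 3 were scanned on a different day from the other 4 and had a lower share of Cy3 spots well above background, within a range of 49.12 to 75.55% over the 12 arrays. Each slide held both ages. All 244 called genes had the same sign in the mean of slides 2 and 3 and in the mean of slides 1, 4, 5 and 6, and 210 had it on each of the 6 slides. The genes were called from these same slides, so that such agreement was largely set by the choice. The share over all genes was not counted. For 18 of 72 called genes tracked 1 by 1, the means of the 2 sets of slides differed by over 1.5 times, with the smaller on slides 2 and 3 for 8 of them. Some called genes named below, such as Kazn, Slc22a23 and those given by identifier, are not among the 72, apart from L18942. With the slide as a block, 270 genes were called, which included 216 of the 244. As a check of the tissue label, the mean log2 ratio of 18 colonocyte markers was between 0.12 and 0.84 on every array, and those of lists for pancreas, skeletal muscle and small intestine lay between -4.92 and -2.01. These ratios also depend on the reference pool, which held colon, small intestine and other tissues.

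The largest change of an ion carrier was a fall of Slc30a10, a transporter that exports manganese from cells. Its log2 ratio was lowest 1.68, median 2.16 and highest 2.89 at 6 weeks, against 0.06, 0.39 and 1.07 at 12 weeks. The groups did not overlap, and the level was lower on all 6 slides. The difference was -1.70 ± 0.21 (FDR 0.000819), a 3.25-fold fall, and Slc30a10 was called in every fit that left out an array and under all 11 other planned settings. The probe lies at chr1:184993807-184993866 of mm7. Slc40a1, or ferroportin, which exports iron from cells into the blood, fell by 0.77 ± 0.18 on the log2 scale (FDR 0.0299). Its range was 1.00 to 1.59 at 6 weeks and -0.05 to 1.41 at 12 weeks. 12 week old mouse 6, at 1.41, had a level within the younger range. The call of Slc40a1 was lost without 6 week old mice 1 or 4 or without 12 week old mouse 5 (FDR up to 0.0796). Heph, the ferroxidase that works with ferroportin, differed by -0.32 ± 0.11 and was not called (FDR 0.105).

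No other gene of the 24 measured in the zinc, manganese and iron list was called, and the median difference of the list was -0.09 against 0.01 over all genes. The metallothioneins, small metal-binding proteins, did not pass, with Mt1 at -0.39 ± 0.36 and Mt2 at -0.61 ± 0.51. The zinc exporter Slc30a1 differed by 0.15 ± 0.24 and the zinc importer Slc39a4 by -0.24 ± 0.21. The other exporters of this family, Slc30a2, Slc30a4, Slc30a5, Slc30a6, Slc30a7 and Slc30a9, lay between -0.24 and 0.26. The importers Slc39a1, Slc39a5, Slc39a7, Slc39a8 and Slc39a14 lay between -0.37 and -0.02. The iron genes Slc11a2, Cybrd1, Tfrc, Fth1, Ftl1 and Hamp lay between -0.21 and 0.11.

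Among calcium genes, Trpv6 fell. It encodes the apical channel through which epithelial cells take up calcium, a target of vitamin D. Its log2 ratio was lowest -0.88, median -0.02 and highest 0.21 at 6 weeks, and -1.71, -1.39 and -0.72 at 12 weeks. Only 6 week old mice 2 and 6, at -0.88 and -0.87, lay within the range of the older mice. The probe (chr6:41552038-41552097, mm7) was not well above background on any 12-week array, so that the fall is a bound, at least 2.04-fold (fitted difference -1.09 ± 0.23, FDR 0.022). The call was lost without 12 week old mouse 2 or 6 week old mouse 4 (FDR up to 0.0679). The difference was -0.59 on slides 2 and 3 and -1.34 on the other slides.

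S100g, or calbindin-D9k, the calcium shuttle of the epithelial cytoplasm, was not called (-0.71 ± 0.50, FDR 0.525). At 6 weeks it was spread from -1.03 to 2.76, with the same mice 2 and 6 lowest, at -1.03 and 0.12, and the other 4 mice at 2.01 or more. At 12 weeks it lay between -0.08 and 1.42. Of the 19 genes measured in the vitamin D and calcium list, Trpv6 alone was called, and the median difference was -0.12. The vitamin D receptor Vdr differed by -0.26 ± 0.15 and the basolateral calcium pump Atp2b1 by -0.42 ± 0.15. Cyp24a1, the enzyme that breaks down active vitamin D, was well above background on 1 of 12 arrays, and Trpv5 on none. The others, Rxra, Cyp27b1, Slc8a1, Calb1, Calb2, Cldn2, Cldn12, Cldn15, Slc34a2, Slc37a2, Casr, Cyp3a11 and Tmprss2, lay between -0.35 and 0.20.

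Several other channels and carriers known from the epithelium were lower in intact colon at 12 weeks. Clcn2, a chloride channel, fell by 0.75 ± 0.12 (FDR 0.00554), with 0.87 to 1.26 at 6 weeks and -0.38 to 0.72 at 12 weeks. Its groups did not overlap, and its call held in all 12 fits without 1 array. Scnn1a, a subunit of the epithelial sodium channel, fell by 0.59 ± 0.14 (FDR 0.0359). It was the only called gene of the 27 measured in the sodium, chloride and water list, whose median difference was -0.15. The sodium pump subunit Atp1b1 (-0.52, FDR 0.0815) and the exchanger Slc9a2 (-0.46, FDR 0.0858) were below 0 and did not pass. Slc13a2, a citrate carrier, fell by 0.82 ± 0.19 (FDR 0.0308), and Cnnm4, a magnesium transporter, fell by 0.71 ± 0.14 (FDR 0.0184). Abcc3, which moves bile acid conjugates into the blood, fell by 0.65 ± 0.16 (FDR 0.0361) and was the only called gene of 12 in the bile acid list. Trpv3, a cation channel, fell by 1.18 ± 0.30 (FDR 0.0426) without overlap. Its probe was well above background on 4 of 6 arrays at 12 weeks, and the difference was -0.40 on slides 2 and 3 and -1.58 on the other slides. The calls of Scnn1a and Abcc3 held in 5 of the 12 fits without 1 array and that of Trpv3 in 3. Those of Slc13a2 and Cnnm4, picked after their values were seen, held in 8 and 10. For Scnn1a, Abcc3, Trpv3 and Cnnm4 only 1 of 2 probes was called.

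**Figure D2:**
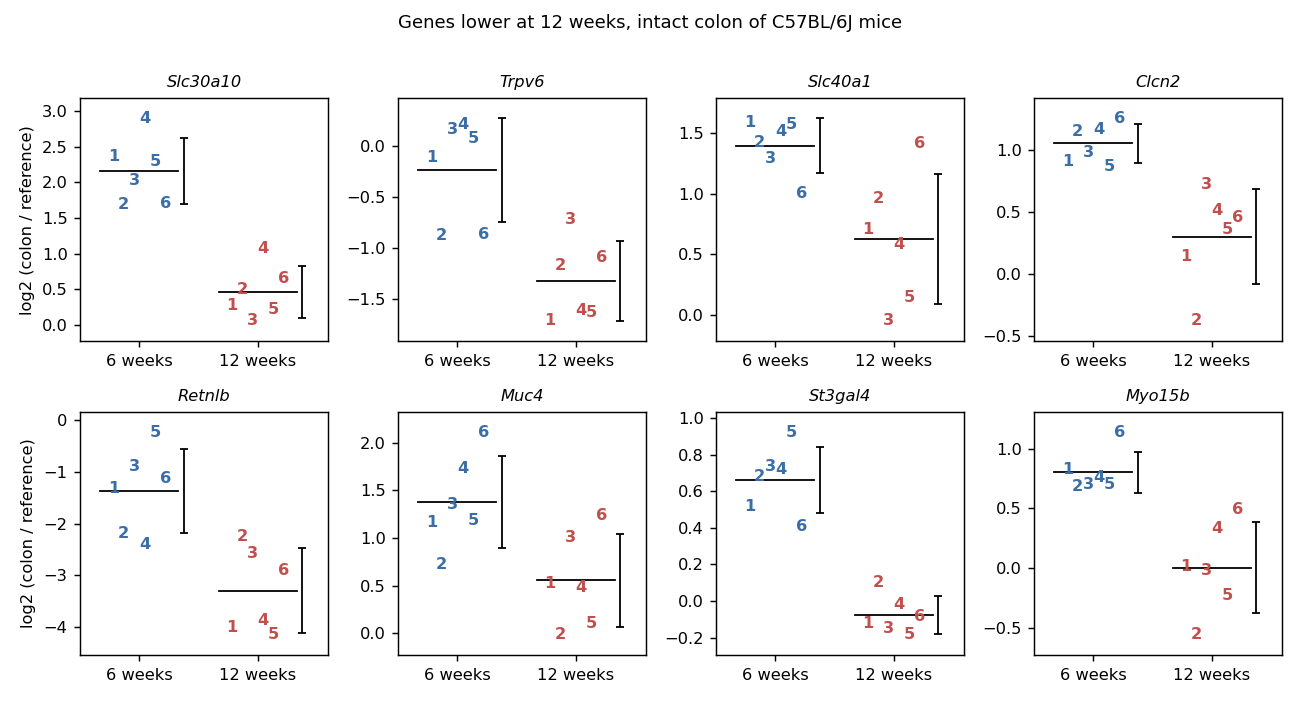
Log2 ratio of colon over reference (y axis) in each 6 week old (blue) and 12 week old (red) mouse for 8 genes that fell, with the mouse number as the plotting symbol, the mean as a line and the SD as an error bar (n = 6). Slc30a10, Clcn2, St3gal4 and Myo15b did not overlap between ages, while 12 week old mouse 6 lay within the younger range for Slc40a1, as did mice 3 and 6 for Muc4.

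The largest fall among called genes was that of Retnlb, which encodes a secreted goblet cell protein that acts on bacteria and helminths. It was -2.40 to -0.24 at 6 weeks and -4.14 to -2.25 at 12 weeks, and lower at 12 weeks on all 6 slides. The fitted difference was -1.93 ± 0.48 (FDR 0.0398). This call was fragile. It held in 2 of the 12 fits without 1 array, was lost with the slide as a block (FDR 0.0534), and the difference was -0.87 on slides 2 and 3 against -2.46 on the other slides. Agr2, a protein-folding enzyme of goblet cells that mucin needs, moved the other way. It rose by 0.67 ± 0.14 (FDR 0.018), from 0.79 to 1.35 at 6 weeks to 1.35 to 2.33 at 12 weeks, higher on all 6 slides, and its call was lost only without 12 week old mouse 2 among the fits without 1 array (FDR 0.0549). The difference of Agr2 was 1.09 on slides 2 and 3 and 0.46 on the other slides. Of 12 goblet cell markers measured Retnlb and Agr2 were called, and the median difference was -0.23. Muc2, the main gel-forming mucin of the colon, differed by -0.53 and did not pass (FDR 0.179). The membrane mucin genes Muc3 and Muc4 were called as well. Muc3 fell by 0.93 ± 0.21 (FDR 0.0303) and Muc4 by 0.82 ± 0.21 (FDR 0.0456), and 4 of the 6 Muc4 probes were called. The call of Muc3 held in 7 of the 12 fits without 1 array and that of Muc4 in 3. Retnlb was also the only called gene of the 24 measured antimicrobial and barrier factors, whose median difference was -0.23.

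Some falls were of genes whose products act in microvilli or in vesicles of epithelial cells, gathered here by function after their values were seen. Myo15b, an unconventional myosin, fell by 0.80 ± 0.15 (FDR 0.0138), from 0.69 to 1.14 at 6 weeks to -0.56 to 0.49 at 12 weeks, without overlap. Myo5c, a myosin of secretory vesicles, fell by 0.74 ± 0.14 (FDR 0.00964). Myo1a and Myo7b, motors that shape microvilli, fell by 0.60 ± 0.14 (FDR 0.0323) and 0.66 ± 0.17 (FDR 0.0456). Ceacam20, an adhesion protein of microvilli, fell by 0.83 ± 0.21 (FDR 0.0385) and Alpi, an intestinal alkaline phosphatase, by 0.95 ± 0.24 (FDR 0.0426). Alpi was the only called gene of 15 in a list of small intestine markers. The calls of Myo15b and Myo5c held in all 12 fits without 1 array. Those of Myo1a, Myo7b, Ceacam20 and Alpi held in 6, 5, 5 and 2 of them. For Myo5c, Myo1a, Myo7b and Alpi only 1 of 2 probes was called. Of the 18 colonocyte markers, Ceacam20 alone was called, 14 were below 0 and the median difference was -0.27. The mean of the list was lower at 12 weeks on 6 of 6 slides. Over all 27670 genes 13138 were below 0 and 14532 above. Markers of a cell type can vary together in bulk tissue, so that counts by sign are not independent.

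The falls also held genes of other functions. St3gal4, which caps glycans with sialic acid, was 0.41 to 0.92 at 6 weeks and -0.18 to 0.10 at 12 weeks, a fall by 0.74 ± 0.11 (FDR 0.00356). Mxd1, which opposes the growth regulator Myc, and Max, the partner that both need to bind DNA, fell by 0.78 ± 0.12 (FDR 0.00356) and 0.67 ± 0.13 (FDR 0.0127). Gtpbp2, a factor that rescues stalled ribosomes, fell by 0.82 ± 0.12 (FDR 0.00302), the transcription factor Casz1 by 0.69 ± 0.12 (FDR 0.00554), and the membrane semaphorin Sema4a by 0.69 ± 0.12 (FDR 0.00622). Agrn, a basement membrane proteoglycan, fell by 0.77 ± 0.14 (FDR 0.00933). These 7 genes did not overlap between the ages and were called in all 12 fits without 1 array. Kazn (-0.68) and the carrier Slc22a23 (-0.69) did the same. Slc30a10, Clcn2, Myo15b, Myo5c and Mov10 were also called in all 12 fits. The remaining 9 of the 23 falls of that kind were Ppnr, Myohd1, 2610027H17Rik, 6030487A22Rik, TC1523778, NAP105665-1, AK034355, AK039509 and AK032539, most of them named in the files by clone or sequence identifiers. Of the 15 largest falls 8 were also features of little known function, Ppnr, LOC666339, NAP102794-1, ENSMUST00000076648, AK034384, AK053596, AK038328 and AK169873, with differences of -1.11 to -0.92. The epithelial genes Itgb4, a laminin receptor, and Erbb3, a growth factor receptor, fell by 0.63 ± 0.15 (FDR 0.0304) and 0.69 ± 0.17 (FDR 0.0352). Tcf7l2, the factor through which Wnt signals act in crypts, fell by 0.63 ± 0.15 (FDR 0.0352). Pax6, an enteroendocrine regulator and the only called gene of 15 in that list, fell by 0.69 ± 0.18 (FDR 0.0461). The calls of Itgb4, Erbb3, Tcf7l2 and Pax6 held in 7, 5, 7 and 3 of the 12 fits without 1 array. They rest on 1 of 3 probes for Itgb4, Pax6 and Agrn, on 1 of 5 for Erbb3 and on 3 of 4 for Tcf7l2.

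Among the rises, genes of fat cells had the largest differences. Lep, which encodes the fat hormone leptin, was -0.52 to 0.25 at 6 weeks with a median of -0.45, and -0.07 to 2.96 at 12 weeks with a median of 2.52. 12 week old mouse 5, at -0.07, was the only older mouse within the younger range. Lep rose by 2.28 ± 0.46 (FDR 0.0164), 4.86-fold, and was higher on all 6 slides. It was well above background on 1 of 6 arrays at 6 weeks and on all 6 at 12 weeks, so that the size of its rise rests on dim spots. Its call was lost only without 12 week old mouse 2 among the fits without 1 array (FDR 0.0536), and was also lost when the mean of the adipose list, which includes Lep itself, was a covariate (0.95, FDR 0.0772). The probe lies at chr6:29005380-29005439 of mm7.

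Other called rises are genes that fat cells express. Nat8l, which makes N-acetylaspartate, rose by 2.07 ± 0.53 (FDR 0.0456). Trarg1, a regulator of glucose transporter traffic, rose by 1.68 ± 0.40 (FDR 0.0339), and Npr3, the clearance receptor of natriuretic peptides, by 1.67 ± 0.34 (FDR 0.0193). Arxes2 rose by 1.21 ± 0.28 (FDR 0.0303), Dgat2, which completes triglycerides, by 0.90 ± 0.24 (FDR 0.0475), and G0s2, an inhibitor of fat breakdown, by 0.92 ± 0.22 (FDR 0.0352). In Nat8l, as in Lep, 12 week old mouse 5 was lowest of its age, at 0.69, and 6 week old mice 3 and 4 were highest of theirs, at 1.65 and 1.84. The calls of Nat8l and Dgat2 held in 2 of the 12 fits without 1 array, and 1 of 3 Dgat2 probes was called. Those of Trarg1, Npr3, Arxes2 and G0s2 held in 6, 11, 8 and 7 of them.

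The list of 16 adipose markers was measured in full and had a median difference of 1.80, with 15 above 0 and Lep the only one called. Adipoq, or adiponectin, differed by 3.51 ± 1.13 (FDR 0.101) and was not called. It was 2.85 to 3.58 in 5 of the older mice and -0.11 in mouse 5, and at 6 weeks 2.25 and 2.22 in mice 3 and 4 and -3.03 to -0.94 in the others. The mean of the list showed the same order of mice. It was 1.07 to 1.63 in 5 older mice and -0.81 in mouse 5, and 0.55 and 0.31 in younger mice 3 and 4 against -1.54 to -1.02 in the other 4. It was higher at 12 weeks on 6 of 6 slides, by 0.58 to 2.65. Without 12 week old mouse 5, 6 of the 16 markers were called, where 235 of all genes (0.849%) were. This mouse was the lowest of its age on the list, so that leaving it out widens the difference by construction. Without 12 week old mouse 2, 0 of the markers were called, and 1 was in every other fit without 1 array. The methods describe removal of fat for the pieces embedded for microdissection. For the intact pieces removal or amount of fat was not given in the sources used here, and its part in these differences was not tested. With the mean of the adipose list as a covariate, an alternative chosen after seeing the data, 166 genes were called, 93 of them among the 244.

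Some rises were still called with that covariate. The adipose mean itself differed with age, with a group mean of -0.72 at 6 weeks and 0.96 at 12 weeks. A call kept or lost with it therefore does not tell where a rise comes from, and this was not tested. Fabp7, a fatty acid binding protein of glia and other cells, was -1.88 to -0.93 at 6 weeks and -0.51 to 0.52 at 12 weeks (1.24 ± 0.18, FDR 0.00263). Rbp7, a retinol binding protein, was -1.58 to -0.87 and -0.20 to 0.38 (1.17 ± 0.20, FDR 0.00554), and Sncg, or gamma-synuclein, was 0.62 to 1.23 and 1.48 to 2.03 (0.85 ± 0.14, FDR 0.00607). Timp4, an inhibitor of matrix proteases, rose by 1.27 ± 0.22 (FDR 0.00722), and here 12 week old mouse 5 was again lowest, at -0.52. None of these 4 genes overlapped between the ages, and each was called in all 12 fits without 1 array. Cyp3a44, a cytochrome P450, rose by 1.62 ± 0.25 (FDR 0.00374). It was 0.16 to 1.47 at 12 weeks and -1.20 to -0.68 in 5 of the younger mice, with 6 week old mouse 6 apart at 0.33. Among the 15 largest rises were also ENSMUST00000084862, ENSMUST00000078072, BC034902 and A530053G22Rik, at 1.21 to 1.28. Slc1a3, a glutamate carrier, Phlda3 and Mmd rose by 1.65 ± 0.43 (FDR 0.0459), 1.26 ± 0.25 (FDR 0.0162) and 1.27 ± 0.28 (FDR 0.0278), with 12 week old mouse 5 lowest of its age in each, and none of the 3 was called with the covariate. The call of Slc1a3 held in 2 of the 12 fits without 1 array and rests on 1 of its 3 probes. Lctl and Scgb2b20 were not well above background on any 6-week array. The rise of Scgb2b20 was at least 1.52-fold, and for Lctl (fitted difference 1.15 ± 0.23, FDR 0.0164) no bound below the fitted value could be set. Scgb2b20 was well above background on 4 of the older arrays and Lctl on 5.

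**Figure D3:**
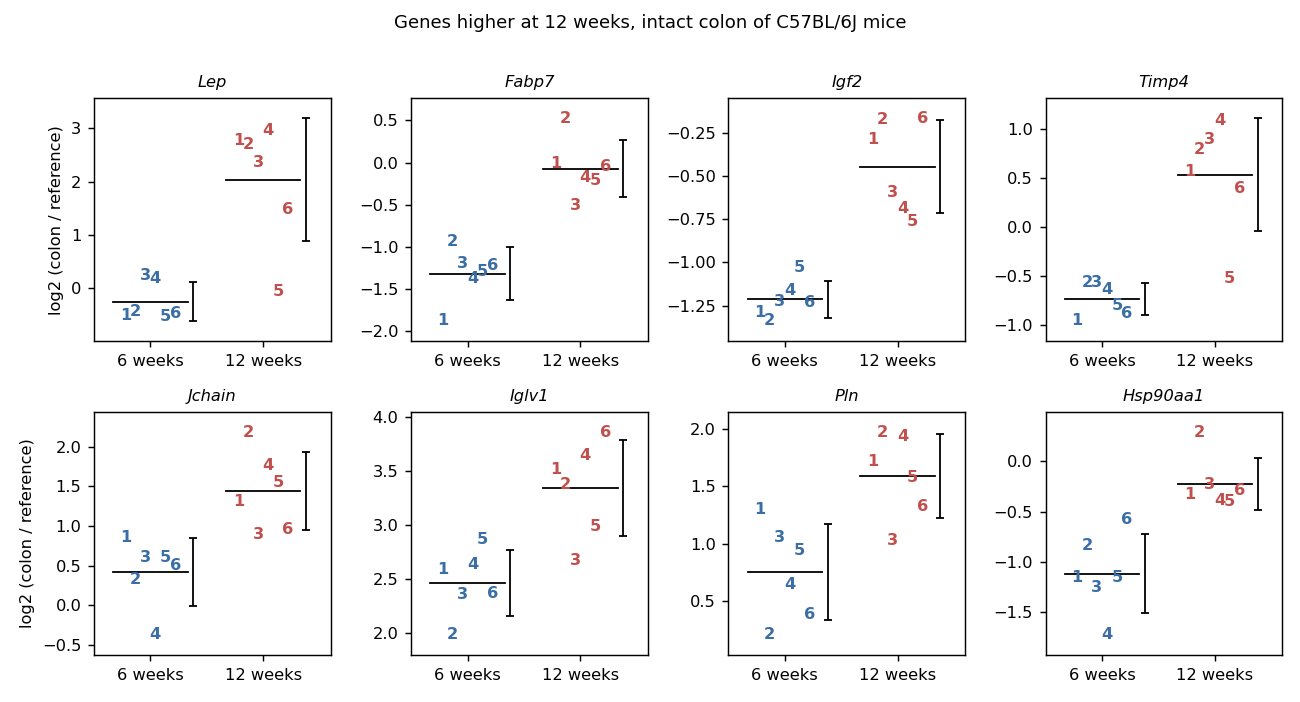
Log2 ratio of colon over reference (y axis) in each 6 week old (blue) and 12 week old (red) mouse for 8 genes that rose, with the mouse number as the symbol, the mean as a line and the SD as an error bar (n = 6). For Lep, 12 week old mouse 5 lies at -0.07, with the younger mice, whereas Fabp7 and Igf2 are higher in all 6 older mice than in any younger mouse.

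Growth genes did not move together. Igf2, an imprinted growth factor, rose by 0.77 ± 0.11 (FDR 0.00195). It was -1.34 to -1.03 at 6 weeks and -0.76 to -0.17 at 12 weeks, without overlap, higher on all 6 slides and called in every fit without 1 array (probe at chr7:139078075-139078135, mm7; the other Igf2 probe was not called). Mest, an imprinted gene that marks growing fat, rose by 1.07 ± 0.27 (FDR 0.0426), with 3 of the 12 fits without 1 array calling it. Dlk1, an imprinted inhibitor of fat cell formation, fell by 0.71 ± 0.18 (FDR 0.0459), with 4 of 12. Of 26 imprinted and growth factor genes these 3 were called, and the median difference was 0.02. H19, the partner of Igf2 in its imprinted cluster, differed by 0.01.

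Some immunoglobulin probes rose. Of 128 immunoglobulin probes, a family chosen after its values were seen and whose members share sequence, 18 were called higher (14.1%) and 0 lower, where 0.289% of all probes were called higher. Of the 110 others, 81 were above 0 and 29 below. Jchain, the joining chain of secreted immunoglobulin A, rose by 1.02 ± 0.24 (FDR 0.0303), from -0.37 to 0.86 at 6 weeks to 0.90 to 2.18 at 12 weeks, without overlap. Igk-V1 and a further kappa variable gene rose by 1.36 ± 0.28 (FDR 0.0203) and 1.20 ± 0.27 (FDR 0.0266). The brightest called probe of Iglv1, a lambda variable gene, rose by 0.88 ± 0.22 (FDR 0.0441), and 6 of the 8 Iglv1 probes were called. The call of the Iglv1 probe given here held in 3 of the 12 fits without 1 array. Jchain was the only called gene of 13 plasma cell markers measured, whose median difference was 0.15. Without 12 week old mouse 2 or 6 week old mouse 4, Jchain and both kappa genes were not called (FDR up to 0.0924).

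Single markers of the deeper wall rose by small amounts, 1 in each list of smooth muscle, of neurons and glia, and of endothelium. Tagln, an actin-binding protein of smooth muscle, rose by 0.63 ± 0.15 (FDR 0.0323), and Pln, a brake on the calcium pump of muscle, by 0.84 ± 0.20 (FDR 0.0344). Tagln was the only called gene of 17 smooth muscle markers, of which 16 were above 0 with a median of 0.34. Tubb6, a tubulin, rose by 0.74 ± 0.11 (FDR 0.00302) and Jam2, a junction protein of vessels, by 0.64 ± 0.12 (FDR 0.00895), both without overlap. Emcn, a sialomucin of capillaries and veins, rose by 0.63 ± 0.13 (FDR 0.0219) and was the only called gene of 15 endothelial markers. S100b, a calcium-binding protein of enteric glia, rose by 0.82 ± 0.20 (FDR 0.0359) and was the only called gene of 21 in its list. Pf4, a platelet chemokine, rose by 0.83 ± 0.20 (FDR 0.0346) as the only called gene of 9 in the blood list, and Cxcl12, a stromal chemokine and the only called gene of 33 chemokines and cytokines, by 0.67 ± 0.16 (FDR 0.0308). Of 21 macrophage and dendritic cell markers 20 were above 0, with a median of 0.28, and none was called. Over all 27670 genes 14532 were above 0. The calls of Tubb6 and Jam2 held without any single array, the others in 4 to 8 of the 12 fits.

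A few protein-folding genes rose, among them 2 that were picked after their values were seen. Hsp90aa1, the inducible cytosolic chaperone, was -1.73 to -0.58 at 6 weeks and -0.40 to 0.29 at 12 weeks, without overlap (0.89 ± 0.19, FDR 0.0236). Those 2, Dnaja1 and Cacybp, act with such chaperones and rose by 0.69 ± 0.14 (FDR 0.0153) and 0.75 ± 0.16 (FDR 0.023). Tmed6, a cargo receptor of the secretory pathway, rose by 0.66 ± 0.12 (FDR 0.00722) without overlap. Of the 18 measured genes of the immediate early and heat shock list only Hsp90aa1 was called, and the median difference was -0.05. The ribosome assembly factors Pno1, Rrp15, Mphosph10 and Znhit6, picked after their values were seen, rose by 0.59 to 0.65. No list of such factors was counted, so that these genes do not describe ribosome assembly as a group. How far their calls depend on single arrays or on the processing was not tracked gene by gene. The calls of Hsp90aa1, Dnaja1 and Cacybp were lost without 12 week old mouse 2 or 6 week old mouse 4 (FDR up to 0.0739).

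Interferon-response genes set 2 of the younger mice apart. Interferons switch on genes that block viral growth. Ifit1, which binds foreign RNA, was 2.13 and 1.56 in 6 week old mice 2 and 4, and -1.97 to -1.67 in the other 4. In the older mice it was -2.54 to -0.49. Oas2, a sensor of double-stranded RNA, was 1.62 and 2.02 in the same younger mice, -2.66 to -1.86 in the other 4, and -2.97 to -1.5 at 12 weeks. Of 30 measured genes of the list, 28 were higher in both of these mice than in any of the other 10. All 30 had a difference below 0, with a median of -0.71, and none was called. Without these 2 mice, an alternative chosen after seeing the data, the median was -0.01.

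Some called falls had the same 2 mice highest. Uba7, which activates the ubiquitin-like ISG15, was 1.01 and 1.31 in mice 2 and 4 and -0.20 to 0.35 in the other younger mice, and fell by 0.90 ± 0.21 (FDR 0.0303). Parp14 fell by 1.02 ± 0.26 (FDR 0.0426), Adar, an RNA editing enzyme, by 0.60 ± 0.14 (FDR 0.0352) and Mov10, an antiviral helicase, by 0.84 ± 0.15 (FDR 0.00963). In each of the 4 genes every younger mouse was higher than every older one. Without mice 2 and 4 the differences of Uba7, Parp14, Adar and Mov10 were -0.51, -0.51, -0.34 and -0.61, and none was called. With all arrays the calls of Adar and Parp14 rest on 1 of 2 and 1 of 3 probes.

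Promoters of the list were searched on both strands for GAAA, then any 2 bases, then GAAA, a pattern of the interferon-stimulated response element. Of the 22 genes with a promoter in the RefSeq table (GRCm38.p6), 10 had it in the 250 bases before the start, 37% of 27 promoters, against 2.98% of all 32851 promoters. Promoters of 3 genes that followed mice 2 and 4 are shown, 5' to 3' on the gene's strand, with the matches in capitals.
Ifit1, chr19:34640639-34640888, plus strand: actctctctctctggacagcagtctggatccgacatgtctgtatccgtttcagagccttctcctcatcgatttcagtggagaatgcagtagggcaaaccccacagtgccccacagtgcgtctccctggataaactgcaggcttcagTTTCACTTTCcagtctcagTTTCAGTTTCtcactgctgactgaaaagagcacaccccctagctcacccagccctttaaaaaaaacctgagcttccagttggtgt
Ifit3, chr19:34583279-34583528, plus strand: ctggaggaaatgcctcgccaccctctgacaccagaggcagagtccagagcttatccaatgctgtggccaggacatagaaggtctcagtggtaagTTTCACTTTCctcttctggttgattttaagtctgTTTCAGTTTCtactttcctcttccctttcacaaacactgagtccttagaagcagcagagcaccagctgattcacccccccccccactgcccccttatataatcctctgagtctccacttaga
Rsad2, chr12:26456453-26456702, minus strand: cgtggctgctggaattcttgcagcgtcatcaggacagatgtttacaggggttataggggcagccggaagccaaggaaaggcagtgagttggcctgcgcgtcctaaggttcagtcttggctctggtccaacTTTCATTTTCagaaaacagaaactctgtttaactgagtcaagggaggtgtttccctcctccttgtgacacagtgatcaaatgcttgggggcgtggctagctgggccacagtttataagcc
Ifit1 and Ifit3 each held 2 matches and Rsad2 held 1. These matches describe letters in the window, and binding was not measured.

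Other single mice stood apart at 6 weeks. In mouse 5 the cytokine Il1b was 4.04, against -0.44 to 1.15 in the other 5 and 0.23 to 1.52 at 12 weeks. The neutrophil alarmin S100a9 was 3.64 in mouse 5 and -2.88 to -0.40 in the others. Of 11 neutrophil markers 6 were highest of all 12 mice in mouse 5, and 12 of 33 chemokines and cytokines were. Reg3b, an antibacterial lectin of the epithelium, was 2.25 and 1.30 in mice 2 and 6 and -3.78 to -1.19 in the other 4. It was -5.69 to -1.90 at 12 weeks, and its difference of -2.07 ± 0.93 was not called (FDR 0.253). None of these genes was called between the ages.

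**Figure D4:**
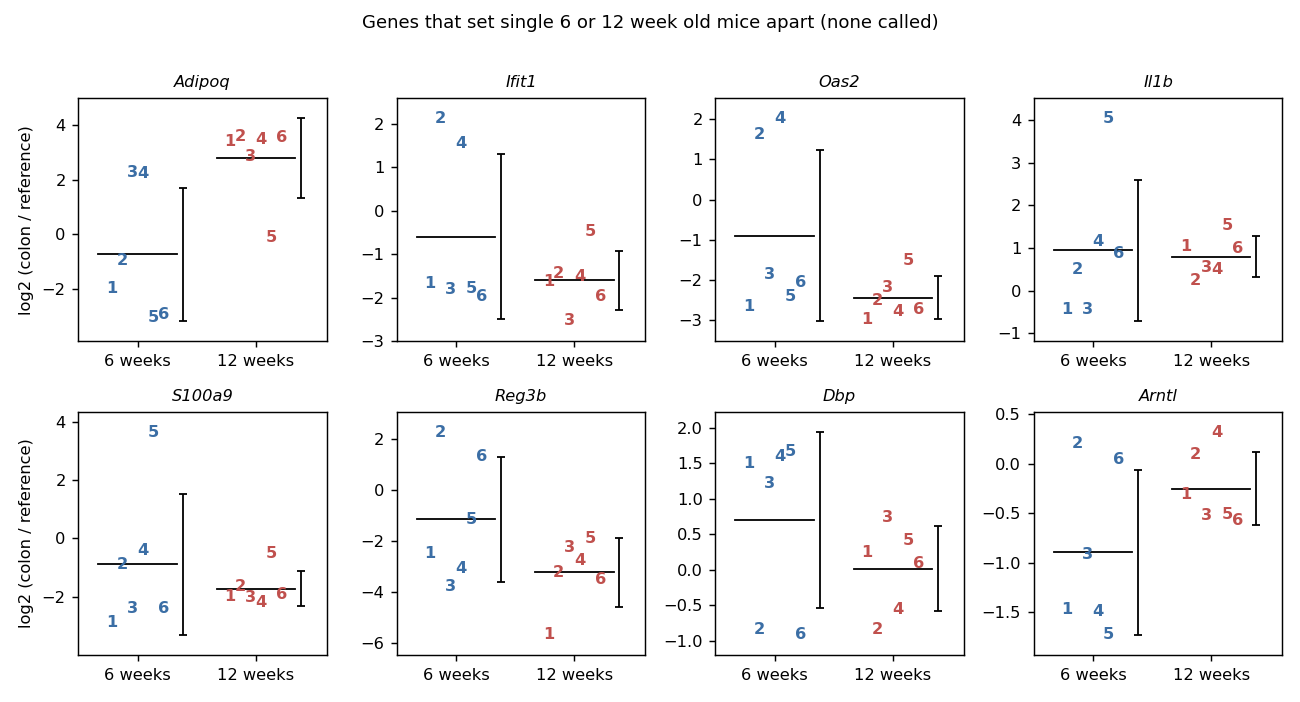
Log2 ratio of colon over reference (y axis) in each 6 week old (blue) and 12 week old (red) mouse for 8 genes that were not called, with the mouse number as the symbol, the mean as a line and the SD as an error bar (n = 6). Mice 2 and 4 stand apart for Ifit1 and Oas2, mouse 5 for Il1b and S100a9, mice 2 and 6 for Reg3b, Dbp and Arntl (all at 6 weeks), and 12 week old mouse 5 for Adipoq.

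Clock genes, which cycle over the day, also split the younger mice. Dbp, a clock output factor, was -0.84 and -0.91 in 6 week old mice 2 and 6 and 1.22 to 1.67 in the other 4, with -0.84 to 0.74 at 12 weeks. Arntl, which peaks in antiphase to Dbp, was 0.21 and 0.04 in the same 2 mice and -1.72 to -0.92 in the others. Ciart, a clock repressor, was -0.62 and 0.55 in them against 1.71 or more. None of the 19 clock genes was called, and the median difference was -0.25. Without mice 2 and 6, chosen after seeing the data, the median was -0.63. The hour of sampling of each mouse was not given in the sources used here, and its part was not tested.

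The E-box CACGTG, to which the product of Arntl binds with its partner CLOCK, was in 28.6% of 21 promoters of the list, from 5 of 16 genes, against 6.02% of all promoters. It is a palindrome and was counted once for both strands. The promoters of Ciart, with 3 boxes, and Per1, with 1, are shown in the same way.
Ciart, chr3:95882229-95882478, minus strand: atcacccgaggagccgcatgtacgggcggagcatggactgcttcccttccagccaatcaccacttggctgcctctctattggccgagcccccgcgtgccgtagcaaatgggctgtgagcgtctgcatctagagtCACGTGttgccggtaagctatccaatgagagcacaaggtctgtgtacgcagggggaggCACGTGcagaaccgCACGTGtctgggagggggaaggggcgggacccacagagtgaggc
Per1, chr11:69098699-69098948, plus strand: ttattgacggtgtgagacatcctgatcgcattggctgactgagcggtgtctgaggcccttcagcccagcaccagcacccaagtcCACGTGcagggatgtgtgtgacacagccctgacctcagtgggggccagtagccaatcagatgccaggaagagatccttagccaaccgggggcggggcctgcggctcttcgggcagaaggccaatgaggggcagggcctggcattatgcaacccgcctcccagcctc
Per1 differed by -0.29 between the ages and was not called (FDR 0.649).

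The same contrast in Il10-/- mice, whose colon becomes inflamed over these weeks, called 2296 genes (8.3%), 1151 higher (4.16%) and 1147 lower (4.15%), 2 of them in both directions by different probes. The 2 contrasts share no arrays. The age change differed between the strains for 2204 genes (7.97%), tested as an interaction, and for 92 of the 244 genes called in C57BL/6J mice. The interaction includes the C57BL/6J arrays from which the 244 were called. A larger share among them is therefore partly built in by that choice. Of the 137 falls 113 were below 0 in Il10-/- mice too, whereas of the 107 rises 52 were above 0 there. Over all genes, 54.2% of those below 0 in C57BL/6J mice were below 0 in Il10-/- mice and 50.8% of those above 0 were above 0. Called in both strains were 52 genes with the same direction and 12 with opposite directions.

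Slc30a10 fell further in Il10-/- mice, by 4.09 (difference between the strains -2.39, FDR 4.74e-05). Retnlb rose there by 2.24 (difference 4.17, FDR 0.000391) and Muc4 by 0.80 (difference 1.62, FDR 0.00121), both opposite to C57BL/6J mice. The largest difference in the same direction among the rises was that of the feature L18942, which rose by 0.90 in C57BL/6J mice and by 2.42 in Il10-/- mice (difference 1.52, FDR 0.00277). Its call in C57BL/6J mice held in 6 of the 12 fits without 1 array. Slc40a1, Scnn1a, Abcc3, Muc3 and Myo15b fell in both strains, by 0.89, 0.71, 0.82, 1.01 and 0.90 in Il10-/- mice, and no difference between strains was called for them. The Trpv6 probe was well above background on 1 of 6 arrays of 12 week old Il10-/- mice and on 0 of 6 in C57BL/6J mice, so that the size of its fall was not compared between strains. Jchain rose more in Il10-/- mice (2.19, difference 1.17, FDR 0.0284).

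The fat cell genes Lep and Nat8l were not called in Il10-/- mice. Lep differed there by -0.36 and Nat8l by -1.11, and their age changes differed between strains by -2.64 (FDR 0.0107) and -3.18 (FDR 0.00867). Igf2 differed by -0.18 there (difference -0.95, FDR 0.000295) and Fabp7 by 0.02 (difference -1.23, FDR 0.0028). Cyp3a44 was lower with age there (difference -2.94, FDR 3.78e-05), with 0 of 6 arrays well above background at 12 weeks, so that the size of this difference is limited by the background. Some genes of muscle, glia and vessels that rose in C57BL/6J mice were lower with age in Il10-/- mice. Pln fell there by 1.01 (difference -1.85, FDR 0.000247), Tagln by 0.81 (difference -1.45, FDR 0.000163) and S100b by 1.04 (difference -1.86, FDR 0.000223). Tubb6 and Emcn were at -0.50 in Il10-/- mice, which did not pass the FC threshold, and their age changes differed between strains by -1.23 (FDR 3.87e-05) and -1.14 (FDR 0.000455). Pcdh17, a protocadherin, rose by 0.62 ± 0.15 in C57BL/6J mice and fell by 1.62 in Il10-/- mice (difference -2.25, FDR 2.6e-06). Its call in C57BL/6J mice held in 2 of the 12 fits without 1 array.

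**Figure D5:**
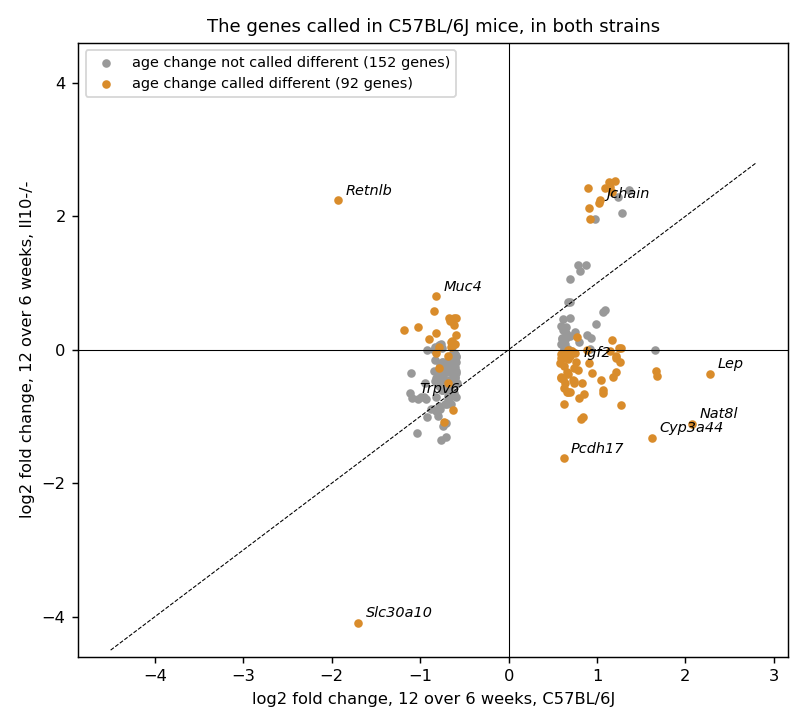
Log2 fold change from 6 to 12 weeks in C57BL/6J mice (x axis) and in Il10-/- mice (y axis) for the 244 genes called in C57BL/6J mice, with equal change on the dashed line. The 92 genes with a called difference between the strains (orange) lie on both sides of the dashed line, and Slc30a10 lies at -1.70 and -4.09.

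In laser microdissected colon epithelium of C57BL/6J mice, 5 at 12 weeks and 6 at 6 weeks, the same contrast called 0 genes (0%), and 1557 (5.63%) had an unadjusted p under 0.05 in limma. Of the 244 genes called in intact colon 156 had the same sign in epithelium, 63.9%, against 51.6% of all genes. In epithelium Trpv6 was -0.53 to 1.46 at 12 weeks and 0.53 to 4.88 at 6 weeks, with a difference of -2.74 ± 0.58. Slc30a10 was -0.29 to 0.02 and -0.29 to 1.19, with a difference of -0.60 ± 0.21. The brightest called Iglv1 probe was 4.15 to 5.65 at 12 weeks and 2.83 to 4.36 at 6 weeks, a difference of 1.43 ± 0.30. The FDR of each of the 3 was 0.966. Other immunoglobulin probes varied in epithelium. The 6 Iglv1 probes called in intact colon differed by 0.27 to 2.02 there and Jchain by 1.29, whereas Igk-V1 differed by 0.001, the further kappa variable gene by 0.03 and L18942 by -0.11, and none was called. Lep and Fabp7 differed by -0.02 and -0.08 in epithelium, and Igf2 by 0.32. Slc40a1, Trpv3, Slc13a2, Clcn2 and Abcc3 differed there by -0.91, -0.52, -0.29, -0.12 and -0.09, and Scnn1a and Cnnm4 by 0.10 and 0.24. Myo1a, Alpi, Ceacam20, Myo15b and Myo5c lay between -0.32 and -0.02, and Myo7b at 0.006. Muc4 and Muc3 differed by -0.39 and -0.003. The median of the colonocyte list was 0.14 in epithelium and -0.27 in intact colon. The 2 tissues were not compared by a test.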

How the data were processed

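Colon RNA labelled with Cy3 and a common reference labelled with Cy5 were hybridised to Agilent whole mouse genome arrays, without dye swap. The authors deposited scanner output, with spot intensity values from Feature Extraction 9.5.1.1 for intact colon and 10.10.1.1 for epithelium per the file headers, and a table of normalised log2 ratios (Cy5 over Cy3). Per the file headers, spot flags and other columns mark controls, outliers and spots well above background. The submitters' processing notes name R 2.14.1 and limma.

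Here mean spot intensities of the 24 intact colon arrays were used without background correction. Control spots were left out, outlier-flagged spots set to missing (89 to 182 per C57BL/6J array), and log2 Cy3 over Cy5 was normalised by loess within each array (span 0.3, 4 iterations). The result correlated at 0.999971 or more with the authors' table, sign turned. Duplicate spots were averaged to 41174 probes of 27670 genes, named by RefSeq accession (22951 probes), current symbol (6659), older symbol (3109) or the name in the files (8455). Groups came from sample titles. limma 3.58.1 in R 4.3.3 was fitted over all 4 groups, with Benjamini-Hochberg adjustment over all probes. A gene is shown by its brightest called probe, or else its brightest. Epithelium was fitted separately on median intensities of 23 arrays, leaving out a second array of 1 mouse. Where a probe was not well above background in all mice of an age, the fold is a bound against the lowest signal well above background, given only where it is under the fitted fold. The fit was tested on simulated data. No Cy3 spot was saturated on the C57BL/6J arrays, and the number of arrays limits the precision.

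The lists and text genes were chosen with earlier results of these data known. Named were the 15 largest rises and falls, genes called in every fit without 1 array, called members of the lists, the mineral lists, and the 3 largest strain differences each way. Outside this rule, and chosen after their values were seen, were Slc13a2, Cnnm4, Myo1a, Myo7b, Itgb4, Erbb3, Tcf7l2, Uba7, Adar, Arxes2, Dgat2, G0s2, a kappa variable gene, Pln, Dnaja1, Cacybp, Pcdh17, Lctl, Mphosph10, Pno1, Rrp15 and Znhit6, and, not called, Adipoq, Ifit1, Oas2, Il1b, S100a9, Reg3b, Dbp, Arntl, Ciart, Muc2, H19, Per1, Atp1b1 and Slc9a2. The lists for cell cycle, extracellular matrix, fatty acid oxidation, cholesterol synthesis, xenobiotics, gap junctions, stem cells, B cells, T cells, mast cells, fibroblasts, pancreas, skeletal muscle, MHC class II and position along the colon had no called gene.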

Additional observations from a re-analysis of the deposited data

Results flagged for a closer look

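Of 196 sets of 6 values, genes or list means in 1 age group, 14 had their highest or lowest mouse far from the other 5, where chance gives about 5%. Some sets were chosen after their values were seen and all share the same mice, so that this comparison is not a test. At 12 weeks the lowest mouse stood apart for Uba7 (-0.96), Nat8l (0.69), Slc1a3 (-0.36), Adipoq (-0.11) and the mean of the adipose list (-0.812), the last 4 in mouse 5. The highest stood apart for Hsp90aa1 (0.29), S100a9 (-0.53), the mean of the interferon list (-0.791) and that of the zinc, manganese and iron list (0.0946). At 6 weeks the highest stood apart for Myo15b (1.14), Cyp3a44 (0.33), Jam2 (0.24) and Il1b (4.04), and the lowest for the mean of the goblet cell list (0.0121).

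The age change differed between strains, by the interaction test, for 44 of the genes described. Most genes described were chosen for their change in C57BL/6J mice, which enters this test. The log2 values that follow are the change in Il10-/- mice minus that in C57BL/6J mice. Among the genes that rose in C57BL/6J mice the difference was negative for Nat8l (-3.18), Cyp3a44 (-2.94), Lep (-2.64), Pcdh17 (-2.25), Mmd (-2.09), Trarg1 (-2.06), Npr3 (-1.99), S100b (-1.86), Pln (-1.85), Mest (-1.67), Arxes2 (-1.54), Sncg (-1.51), Tagln (-1.45), Phlda3 (-1.44), Pf4 (-1.33), Timp4 (-1.25), Tubb6 (-1.23), Fabp7 (-1.23), Lctl (-1.17), Emcn (-1.14), Dgat2 (-1.10), Rbp7 (-1.03), Tmed6 (-0.99), Igf2 (-0.95), Hsp90aa1 (-0.89), Dnaja1 (-0.79), Jam2 (-0.76), Agr2 (-0.67) and Scgb2b20 (-0.59). It was positive for Jchain (1.17), a kappa variable gene (1.33) and L18942 (1.52). Among the genes that fell it was negative for Slc30a10 (-2.39) and positive for Casz1 (0.59), Gtpbp2 (0.77), Uba7 (1.06), Parp14 (1.36), Mov10 (1.42), Trpv3 (1.47), Muc4 (1.62) and Retnlb (4.17). Probes of Cyp3a44, Scgb2b20 and Lctl were not well above background on any array of at least 1 of the 4 groups, so that the size of their differences is limited by the background. Of genes not called with age in C57BL/6J mice it was negative for S100g (-5.92) and positive for Il1b (3.12) and S100a9 (4.97).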

How the results depend on the processing

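All 244 called genes, chosen for their difference on these same arrays, kept their sign under every alternative run. Of the genes not called, only S100g, Heph, Adipoq, Ifit1, Oas2, Il1b, S100a9, Reg3b, Dbp, Arntl and Ciart were tracked through the alternatives. Of these, 4 changed sign, and none was called there. Il1b (-0.15) was 0.19 with processed signals, -0.42 to 0.47 in the fits without 1 array (above 0 only without 6 week old mouse 5) and 0.43 with the adipose mean as a covariate. S100a9 (-0.84) was -1.24 to 0.069 in those fits (above 0 only without the same mouse), Ifit1 (-1.01) was 0.21 without 6 week old mice 2 and 4, and Adipoq (3.51) was -0.055 with the adipose mean, which includes it, as a covariate. The medians of the adipose, neutrophil and imprinted gene lists also changed sign under 1, 2 and 3 alternatives. With Feature Extraction's processed signals, median-centred without loess, 16 genes were called (8 higher, 8 lower), 13 of them among the 244. With only the 12 C57BL/6J arrays 12 were called (10 higher, 2 lower), and 61 with the replicate block added (27 higher, 34 lower). Leaving out 1 array gave 47 to 371 called genes, 14 to 154 higher and 33 to 233 lower. Among these, the loss of 12 week old mice 1, 5 or 6 moved only the number of falls past 1.5 times, to 229, 81 and 91. The other alternatives, which were normexp background correction (218), the authors' table (244), Aquantile between arrays (244), median intensities (243), kept outlier spots (243), dim probes left out (307 of 20635 genes) and array weights (210), stayed within 1.5 times. Under the replicate block, with the slide as the block, 270 were called and the calls of 67 of the 72 called genes tracked 1 by 1 held. Of the same 72, 8 held with only the 12 C57BL/6J arrays, 22 with the block added to these, 12 with processed signals, 23 without 12 week old mouse 2 and 27 without 6 week old mouse 4. Same-numbered arrays deviated together with correlations of -0.0478 to 0.266, and only numbers 2, 3 and 6 correlated best with their own number, so that the numbers were not taken to pair the mice. Alternatives chosen after seeing the data gave 55 genes without 6 week old mice 2 and 4 (14 higher, 41 lower), 199 without 6 week old mice 2 and 6 (47 higher, 152 lower), and 166 with the adipose mean as a covariate (59 higher, 107 lower), where 1106 genes differed between strains against 2204. The cause was not tested. Processed signals moved the log2 differences of some dim probes by over 2, Lctl to 3.56, Lep to 4.54, Trpv6 to -3.26 and Scgb2b20 to 2.89. In epithelium 0 genes were called under each of the 15 alternatives run there.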

Other observations

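Spread among mice was larger at 12 weeks. The median SD of a gene over 6 mice was 0.199 at 12 weeks and 0.173 at 6 weeks, and 220 against 151 genes had an SD over 1. Antigen presentation genes of MHC class II lay at a median difference of 0.25 over 11 genes with none called, and 10 of them were above 0. All 13 skeletal muscle markers were below 0, with a median of -0.20 and none called, at levels far under those of the reference. In epithelium Oas2 was 0.68 and 0.91 in 6 week old mice 3 and 5, the highest of that age there, and the numbers do not tie animals across the tissues.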
